A study of Mus musculus with 12 samples.

Results

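The serotonin system was followed through 10 genes in the brains of newborn mice with and without the kinase KIS: Tph2 and Ddc (synthesis), Slc6a4 (transport), Fev (raphe identity), Htr1a, Htr1b, Htr2a and Htr2c (receptors), and Maoa and Maob (breakdown). The genes were taken as all main probesets that carry one of these symbols in the annotation of the array, and they are 10 of the 17550 genes with such a probeset. Together they have 127 probesets, short stretches of an exon that are measured separately, and all 127 passed the filter on variable probesets described with the processing. The group was chosen by the measured Tph2 level, which was lower in the KIS-ko brains, so the difference of Tph2 between the genotypes is given as a description with no test.

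The 12 brains came from newborn female mice, 6 wildtype (KIS +/+) and 6 KIS-ko (KIS -/-), as 6 pairs of littermates with 1 pair per litter. Per the study's methods the KIS-ko allele had been crossed repeatedly to C57BL6/N, and the tissue was the whole brain, ground to powder, so neurons of the raphe were diluted in all other cells. Total RNA of each brain was put on 1 Affymetrix Mouse Exon 1.0 ST array. Uhmk1, the gene that encodes KIS, lay between 10.89 and 11.07 on the log2 scale in the wildtype brains and between 8.62 and 8.98 in the KIS-ko brains, which matches the genotype labels of all 12 arrays.

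Serotonin is made by a small set of neurons in the raphe nuclei of the brainstem, whose axons reach most of the brain. Tryptophan hydroxylase, encoded in these neurons by Tph2, carries out the rate-limiting step, and aromatic amino acid decarboxylase, encoded by Ddc, completes the synthesis. The transporter encoded by Slc6a4 takes released serotonin back up, the monoamine oxidases encoded by Maoa and Maob degrade it, and receptors on the raphe neurons themselves and on their targets detect it. Fev, also called Pet-1, is a transcription factor of the ETS family that is found in serotonin neurons and is needed for their identity.

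Tph2 was lower in the KIS-ko brain than in the wildtype littermate in 5 of 6 litters. In these 5 litters (2 to 6) Ddc was also lower in 5, Slc6a4 in 4 and Fev in 3. So were Htr1a, Htr2c and Maob in 4, Maoa and Htr2a in 3 and Htr1b in 2. Of all genes, 69.1%, 49.0%, 30.3%, 66.1% and 70.4% were lower in litters 2 to 6. Relative to the median gene of each pair, Tph2 was lower in 5 of 6 litters, Ddc in 4, and Slc6a4 and Fev in 3 each. On average Tph2 was 9.89% lower in KIS-ko brains, and Fev differed by 0.588%. None of the 9 other genes passed the test between genotypes after adjustment over all genes (limma, Benjamini-Hochberg, adjusted p from 0.68 to 0.97), where 0.00579% of all 17279 genes passed, namely Uhmk1 alone (difference −2.11 ± 0.068 SE, adjusted p = 2.91e-07). At an unadjusted p under 0.05, Htr1a and Maob were the 2 of the 9 past the threshold, against 6.16% of all genes. Both were lower in KIS-ko brains, as were 4.34% of all genes at this threshold. In bulk tissue, fewer cells of a type and less RNA per cell cannot be told apart.

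The gene value used here is the mean over the probesets of a gene of log2(signal + 16), so that a difference of values is a log2 ratio, slightly compressed for dim probesets. Tph2 values in the wildtype brains had a lowest, median and highest value of 7.84, 7.92 and 8.15, and in the KIS-ko brains of 7.67, 7.78 and 8.06. The 2 groups overlapped, although 4 of the 6 KIS-ko brains lay below the lowest wildtype brain. From litter 1 to litter 6 the differences between littermates (KIS-ko minus wildtype, log2) were 0.14, −0.37, −0.084, −0.14, −0.22 and −0.23, with a mean of −0.15 ± 0.17 (SD, n = 6). Litter 1 was the exception, with the highest Tph2 of all KIS-ko brains. Groups without overlap were seen for 0.208% of all genes and for none of the 10 genes.

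**Figure D1:**
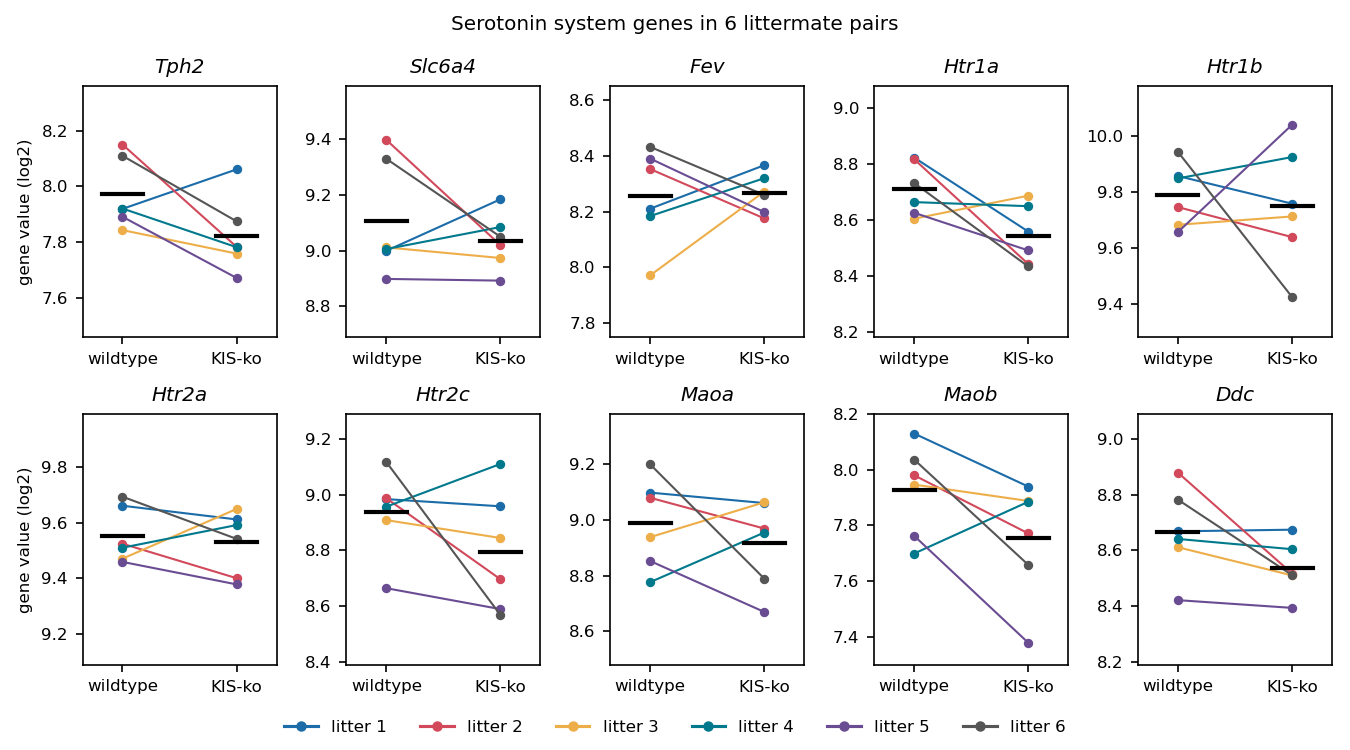
Gene values (log2, vertical axis, each panel spanning the same range) of the 10 serotonin genes in the wildtype and KIS-ko brain of each litter. Lines join littermates and black bars are group means. The groups overlap in every panel, and Tph2 was lower in the KIS-ko brain in 5 of 6 litters.

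Ddc, the other enzyme of the synthesis, showed the direction of Tph2 in the same litters. The wildtype brains had a lowest, median and highest Ddc value of 8.42, 8.66 and 8.88, and the KIS-ko brains of 8.39, 8.51 and 8.67. The difference was −0.13 ± 0.060 (SE, n = 6 litters, 95% interval −0.27 to 0.0015), with an unadjusted p of 0.052 and an adjusted p of 0.68 in the limma fit over all genes. Ddc was lower in all 5 litters with a lower Tph2, by 0.36 in litter 2, 0.27 in litter 6 and between 0.028 and 0.10 in the others, and it was level (0.0058) in litter 1. Relative to the median gene, Ddc was higher in litter 5 (0.024), where Tph2 was lower (−0.17). Of its 13 probesets 11 were lower in KIS-ko brains. The difference was −0.086 without litter 2 and −0.028 when dim probesets were left out. Ddc also serves dopamine and noradrenaline neurons: in the list of 8 catecholamine neuron markers, 6 were lower, with a median difference of −0.056, and their summed signal ranged from 4929 to 5674 in wildtype and from 4907 to 5739 in KIS-ko brains; the part of these cells in the Ddc values was not tested.

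Slc6a4, the serotonin transporter, was lower in 4 of 6 litters, and its difference was smaller than the spread between litters. Its wildtype values had a lowest, median and highest value of 8.90, 9.01 and 9.40, and the KIS-ko values of 8.89, 9.03 and 9.18. The difference was −0.073 ± 0.074 (SE, 95% interval −0.24 to 0.092, limma adjusted p = 0.73), which leaves room for a difference as large as that of Tph2. It was −0.012 without litter 2 and −0.12 without litter 1. By litter the differences were 0.18, −0.38, −0.038, 0.079, −0.0061 and −0.28, so the litters with the lowest and the highest value were the same for Slc6a4 as for Tph2. Tph2 differed from Slc6a4 by −0.077 ± 0.11 (SD over the 6 litters) and lay below it in 4 of them.

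Fev, the identity factor, showed no common direction. Its wildtype values had a lowest, median and highest value of 7.97, 8.28 and 8.43, and the KIS-ko values of 8.18, 8.27 and 8.37, so that the KIS-ko brains all lay within the wildtype range. It was higher in 3 litters and lower in 3 (mean difference 0.0085 ± 0.074 SE, 95% interval −0.16 to 0.17, limma adjusted p = 0.97), and the sign changed with several processing settings listed at the end. The litter with the highest difference, 0.30 in litter 3, had the wildtype brain with the lowest Fev value. In each of the 6 litters the difference of Tph2 was below that of Fev, by −0.16 ± 0.15 on average (SD over litters), which was not tested because Tph2 was chosen for its low level. The only Fev probeset above the 95th percentile of the intron controls, probesets in introns that serve as a yardstick for dim signals, differed by −0.15.

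Among the 4 receptors, Htr1a had the most negative difference. This inhibitory receptor acts as an autoreceptor on raphe neurons and is also found on their targets in the forebrain. Wildtype values had a lowest, median and highest value of 8.60, 8.70 and 8.82, and KIS-ko values of 8.43, 8.52 and 8.69, with 4 KIS-ko brains below every wildtype brain. The difference was −0.17 ± 0.066 (SE, 95% interval −0.31 to −0.022), lower in 5 of 6 litters, with an unadjusted p of 0.028 and an adjusted p of 0.68 in limma and an exact sign-flip p of 0.094, for which 0.031 is the smallest value 6 pairs allow. The litter that went the other way was litter 3, not litter 1 as for Tph2. Of the 12 Htr1a probesets, 11 were lower.

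Htr2c, a receptor of the choroid plexus and of many forebrain neurons, was lower in 5 of 6 litters and at all of its 13 probesets (−0.14 ± 0.081 SE, limma adjusted p = 0.68), with litter differences from −0.55 in litter 6 to 0.15 in litter 4, and its mean was −0.060 without litter 6. The list of 8 choroid plexus markers had 4 lower genes and a median difference of 0.00079. Htr1b, the autoreceptor of serotonin axon terminals, was measured by 2 probesets and differed by −0.039 ± 0.094 (SE, limma adjusted p = 0.88), with litter differences from −0.52 to 0.38. Htr2a, an excitatory receptor of cortical neurons, differed by −0.024 ± 0.056 (SE, limma adjusted p = 0.88) and was lower in 4 litters. The signs of both turned when the arrays were centred on their medians (Htr1b 0.017, Htr2a 0.032), so no direction can be given for either.

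Of the breakdown enzymes, Maob was lower in 5 of 6 litters and Maoa in 4. Maob, an oxidase found in serotonin neurons and in astrocytes, had a lowest, median and highest value of 7.70, 7.96 and 8.13 in wildtype and of 7.38, 7.83 and 7.94 in KIS-ko brains. The difference was −0.17 ± 0.074 (SE, 95% interval −0.34 to −0.0073), with an unadjusted p of 0.042 and an adjusted p of 0.68 in limma and an exact sign-flip p of 0.094. Litter 4 went the other way, by 0.19, and the KIS-ko brain of litter 5 was the lowest of all 12. Of its 19 probesets 17 were lower in KIS-ko brains, the lowest by 0.43 (−0.43 ± 0.081 SE, limma adjusted p = 0.58 over all probesets). That probeset had a mean signal of 65.7, below the median of the intron controls, 114. All 7 markers of astrocytes, the other cells with Maob, were also lower (median difference −0.091, summed signal from 13780 to 16396 in wildtype and from 12786 to 15306 in KIS-ko brains), and their part in the Maob values was not tested. Maoa, found mainly in catecholamine neurons and transiently in serotonin neurons during development, differed by −0.073 ± 0.074 (SE, limma adjusted p = 0.73), and by −0.0055 without litter 6.

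**Figure D2:**
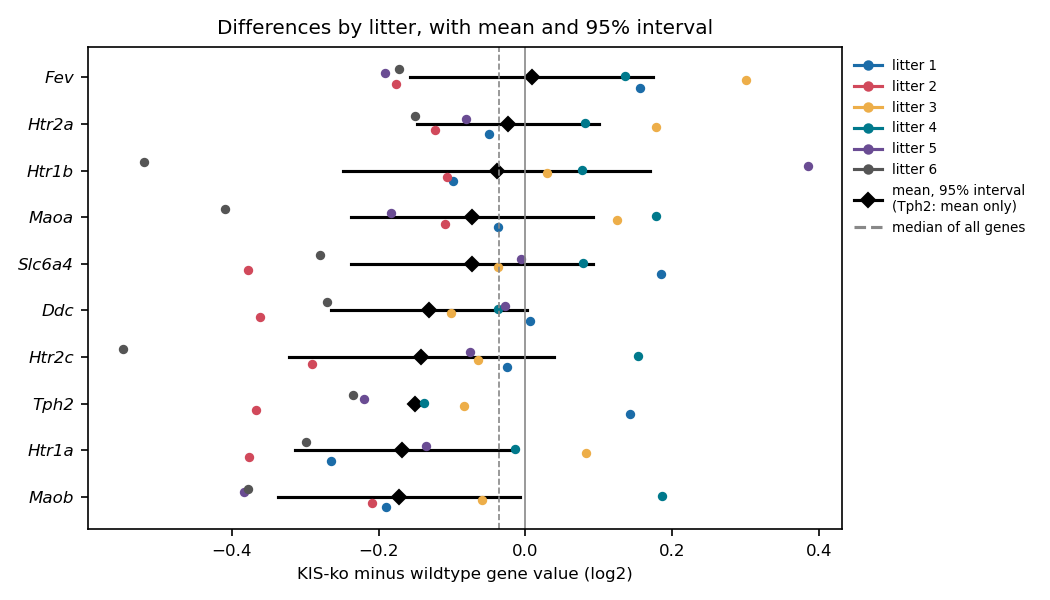
Difference between KIS-ko and wildtype littermates (log2, horizontal axis) for each gene, with a coloured point per litter, a diamond for the mean and a bar for the 95% interval of the limma fit. The Tph2 mean has no interval because Tph2 was chosen for its low level, and the dashed line marks the median of all genes, −0.036.

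The arrays themselves leaned to lower values in KIS-ko brains, which sets the background for a count of lower genes. Of all genes, 69.8% had a mean difference below 0, and the median gene differed by −0.036. Of the 10 genes 9 were below 0, with a median of −0.10, and 8 were below the median gene, where 49.3% of all genes had a mean below it. With arrays centred on their medians 7 of the 10 were below 0, with a median of −0.047, and so were 38.4% of all genes. Without litter 6 the count was 7 and the median −0.046. Without Tph2, 8 of the other 9 were below 0, with a median of −0.073. Of the 10, 5 (Tph2, Htr1a, Htr2c, Maob and Ddc) were lower in 5 of 6 litters, against 22.5% of all genes in 5 or 6 litters. The members were chosen with earlier results of these arrays known and share litters, so these counts are a description.

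The 6 litters did not move alike. All 10 genes were lower in the KIS-ko brain in litters 2 and 6, 9 in litter 5, 6 in litter 1, 5 in litter 3 and 3 in litter 4. The share of all genes that were lower followed a similar order, with 69.1% in litter 2, 70.4% in litter 6, 66.1% in litter 5, 64.7% in litter 1, 49.0% in litter 3 and 30.3% in litter 4. Taken against the median gene of each pair, all 10 were still lower in litters 2 and 6, with medians over the 10 genes of −0.16 and −0.18. By the same measure 7 were lower in litter 5 (median −0.056), 5 in litter 3 (−0.0064), 4 in litter 1 (0.015) and 3 in litter 4 (0.0086). In litter 4 Tph2 was lower by 0.21 relative to the median gene and Ddc by 0.11, while Slc6a4 was level with it (0.0075).

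Whether the raphe genes followed Tph2 was then asked of the litters. Over the 6 litter differences, taken relative to the median gene, Tph2 and Slc6a4 had a Pearson r of 0.79 (exact permutation p = 0.064, adjusted 0.47 over 9 relations) and a Spearman rho of 0.54 (exact permutation p = 0.30, adjusted 0.80). Litters 1 and 2 had the most extreme Tph2 differences, and without them r turned to −0.53, so the relation rested on these litters. For Ddc r was 0.71 (exact permutation p = 0.10, adjusted 0.47; rho 0.71, exact p = 0.14, adjusted 0.79), and −0.29 without the same litters. For Fev r was 0.61 (exact permutation p = 0.20, adjusted 0.59; rho 0.66, exact p = 0.18, adjusted 0.79), and 0.50 without them. For the receptors and oxidases r lay between −0.15 and 0.23 (adjusted exact permutation p of 0.99 for each) and rho between −0.20 and 0.31 (adjusted exact permutation p from 0.80 to 0.92). Without the same litters these r ran from −0.53 to 0.60, and none of the 9 relations passed.

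The 12 arrays were also compared within each genotype, which leaves out the difference between the genotypes. After the mean of each genotype was taken away, brains with more Tph2 also had more Slc6a4, a relation examined after the litter differences had been seen. Over the 12 arrays, centred on the median gene, r was 0.79 (permutation p = 0.00055 with values permuted within genotype, 100000 resamples, adjusted 0.0050 over 9 relations) and rho was 0.76 (permutation p = 0.0053, adjusted 0.024). In the 6 wildtype brains r was 0.88 and in the 6 KIS-ko brains 0.93. Without the 2 arrays farthest from the median of Tph2 (the KIS-ko brains of litters 1 and 4) it was 0.86, without the 2 farthest from the genotype mean (the KIS-ko brain of litter 1 and the wildtype brain of litter 2, a choice added later) it was 0.71, and with 1 litter left out at a time it stayed between 0.76 and 0.84. Littermates are not independent, which the permutation does not take into account.

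Ddc and Fev had lower values of r. Ddc reached 0.68 (permutation p = 0.012, adjusted 0.052; rho 0.70, permutation p = 0.017, adjusted 0.051) and passed on the arrays as deposited (0.80, permutation p adjusted 0.0074). Its r was 0.66 without the 2 arrays farthest from the median of Tph2 but 0.39 without the 2 farthest from the genotype mean. Fev had an r of 0.54 (permutation p = 0.039, adjusted 0.12), 0.59 without either pair of arrays, and a rho of 0.74 (permutation p = 0.0054, adjusted 0.024). On the arrays as deposited the rho of Fev was 0.48 (permutation p = 0.13, adjusted 0.24) and no longer passed. Htr1a, Htr1b, Htr2a, Htr2c, Maoa and Maob had r between −0.34 and 0.24, with adjusted permutation p from 0.71 to 0.90, and rho between −0.23 and 0.20, adjusted from 0.92 to 0.99. A relation of these 6 genes to Tph2 was not detectable with 12 arrays. There were 3 families of 9 relations in all, over litters, over arrays centred on the median gene and over arrays as deposited, and Slc6a4 passed in both array families (0.88 as deposited, permutation p adjusted 0.0051).

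**Figure D3:**
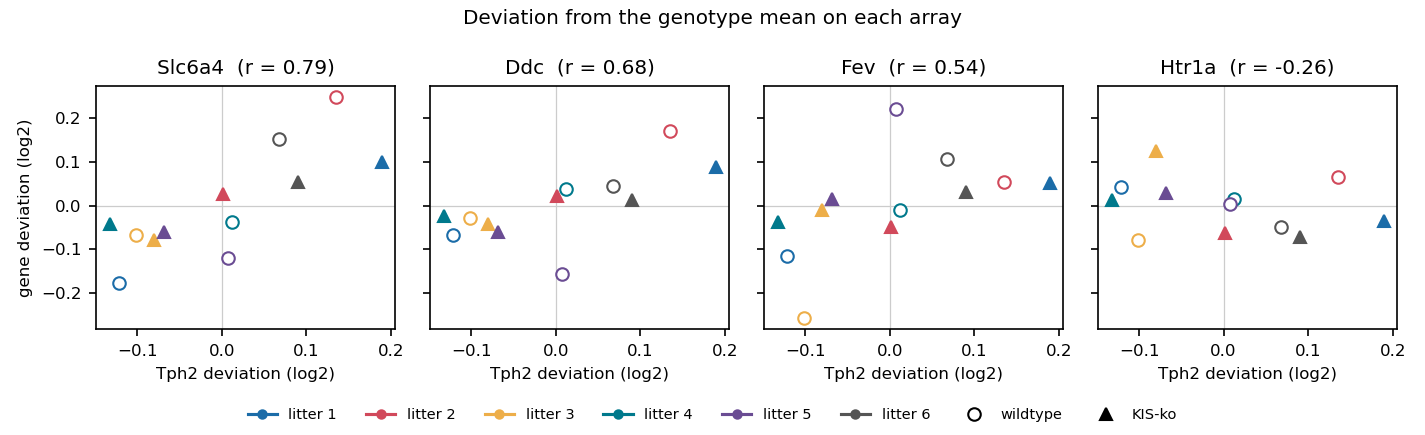
Deviation of each array from its genotype mean (log2, arrays centred on the median gene) for Tph2 on the horizontal axis and Slc6a4, Ddc, Fev or Htr1a on the vertical axis, with open circles for wildtype, triangles for KIS-ko and a colour per litter. The points rise along the diagonal for Slc6a4 (r = 0.79) and show no such order for Htr1a (r = −0.26).

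Set against every other gene on the array, Slc6a4 was among the genes most like Tph2. Of 17278 genes, 12 had a higher r with Tph2 over the 12 arrays, and 80 had a higher r than Ddc and 381 than Fev. The median gene had an r of −0.021, and the range from the 5th to the 95th percentile ran from −0.49 to 0.45. Other genes of serotonin neurons were spread widely: Slc18a2, the vesicular transporter, had an r of 0.48, Gata3 0.33, Gata2 0.040 and Lmx1b −0.017. Th, the rate-limiting enzyme of catecholamine synthesis, had an r of 0.58, while the 8 catecholamine markers had a median of −0.10, with 3 above 0. The 12 hindbrain Hox genes had a median of −0.20 and 1 above 0, and the 7 endothelial markers a median of 0.21 with all 7 above 0. Medians above 0 were also seen for the pineal gland (0.26, 4 of 4 above 0), the choroid plexus (0.18, 7 of 8) and mast cells and platelets (0.16, 6 of 7), and medians below 0 for astrocytes (−0.13), erythroid cells (−0.10) and neurons (−0.047); the part of these cells was not tested. Among genes brighter than most intron controls, the 5 most like Tph2 were Creld1 (0.83), Mpv17l2 (0.81), Pigo (0.81), Ercc1 (0.79) and Arl6ip1 (0.78), out of 7246 compared.

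The promoters of Tph2, of Slc6a4 and Ddc, the members with the highest r with it over the arrays, and of Fev are shown because Fev binds a GGAA core, as other ETS factors do. The 250 bases before the RefSeq start site (GRCm38.p6, a build that differs from the positions in the array table) are printed in the direction of each gene, with GGAA or its reverse complement TTCC in capitals. They lie at chr10:115185023-115185272 on the minus strand for Tph2, chr11:76998347-76998596 on the plus strand for Slc6a4 and chr1:74885409-74885658 on the minus strand for Fev. Ddc has 2 start sites, with chr11:11898145-11898394 before the first and chr11:11890409-11890658 before the second, both on the minus strand.
Tph2: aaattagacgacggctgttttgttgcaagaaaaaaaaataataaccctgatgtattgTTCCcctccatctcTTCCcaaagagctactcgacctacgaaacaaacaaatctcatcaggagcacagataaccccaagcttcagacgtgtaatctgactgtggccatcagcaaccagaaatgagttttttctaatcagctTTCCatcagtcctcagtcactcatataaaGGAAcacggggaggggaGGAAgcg
Slc6a4: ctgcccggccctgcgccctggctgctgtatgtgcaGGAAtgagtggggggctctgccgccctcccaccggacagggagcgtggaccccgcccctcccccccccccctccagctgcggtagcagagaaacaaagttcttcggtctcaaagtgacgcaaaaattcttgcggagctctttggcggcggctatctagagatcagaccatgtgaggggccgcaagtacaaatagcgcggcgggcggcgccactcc
Fev: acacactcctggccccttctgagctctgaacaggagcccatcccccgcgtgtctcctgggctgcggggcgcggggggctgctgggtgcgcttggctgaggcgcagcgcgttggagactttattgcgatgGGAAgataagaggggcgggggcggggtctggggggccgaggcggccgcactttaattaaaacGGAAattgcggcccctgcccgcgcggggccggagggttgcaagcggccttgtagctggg
Ddc, first start site: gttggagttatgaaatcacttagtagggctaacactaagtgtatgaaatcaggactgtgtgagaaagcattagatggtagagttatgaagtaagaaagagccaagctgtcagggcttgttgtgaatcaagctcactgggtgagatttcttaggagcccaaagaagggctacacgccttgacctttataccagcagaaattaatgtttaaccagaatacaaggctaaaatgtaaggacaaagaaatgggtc
Ddc, second start site: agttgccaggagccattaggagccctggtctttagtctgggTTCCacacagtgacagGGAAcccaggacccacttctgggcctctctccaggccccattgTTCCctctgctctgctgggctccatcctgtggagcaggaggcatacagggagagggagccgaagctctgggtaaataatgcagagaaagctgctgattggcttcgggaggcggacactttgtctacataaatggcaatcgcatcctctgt
The core occurred 5 times in Tph2, 1 time in Slc6a4, 2 times in Fev, 0 times before the first start site of Ddc and 3 times before the second. It is a common string, present on either strand in 93.4% of 32851 promoters of the same length. The longer CGGAAG, which contains the core, was in 13.6% of all promoters and, among the 9 genes with an entry, only in Htr1b, and CCGGAAGT, in 2.88% of all promoters, was in none of them. Maob had no entry. A match of letters is a description and does not show binding.

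Along the transcript, Tph2 was lower at most probesets of both the 5′ and the 3′ part. The median difference of the 3′ probesets was below that of the 5′ probesets in 8 of the 10 genes, all but Slc6a4 and Ddc, and in 55.3% of all genes with 2 or more probesets. The 8 include Maoa, with nearly level medians (both −0.087), and Htr1b, with 1 probeset on each side. Tph2 lies on chromosome 10 from 114516102 to 114621942 in the positions of the array table, on the minus strand, and 11 of its 13 probesets were lower in KIS-ko brains. The 7 probesets nearest the 3′ end were all lower, with a median of −0.22, and of the 6 nearest the 5′ end 4 were lower, with a median of −0.10. The exceptions were the first and the fifth from the 5′ end, which differed by 0.20 ± 0.14 and 0.28 ± 0.14 (SE). The most negative was the sixth, in the 5′ part, with −0.44 ± 0.13 (SE) and a mean signal of 61.1, below the median of the intron controls. All 13 were dim: 11 lay above the median of the 5222 intron control probesets, 114, and none above their 95th percentile, 713.

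The dimness set apart Tph2 and Maob, which had no probeset above that percentile, from the other 8 genes, which had between 1 and 7. Slc6a4 had 7 of 16 above it, and 13 of its 16 probesets were lower, with differences from −0.31 to 0.024. The −0.31 was from a probeset with a mean signal of 140 that is not annotated as matching 1 place only. The next lowest was −0.15. Over the 114 probesets of the 9 other genes, 93 were lower, against 66.2% of all probesets, 10 had an unadjusted p under 0.05, against 6.63% of all, and none passed the adjustment (limma), where 0.00487% of all probesets did. Of these 10, 5 were from Maob, 3 from Ddc, 1 from Slc6a4 and 1 from Htr2c.

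**Figure D4:**
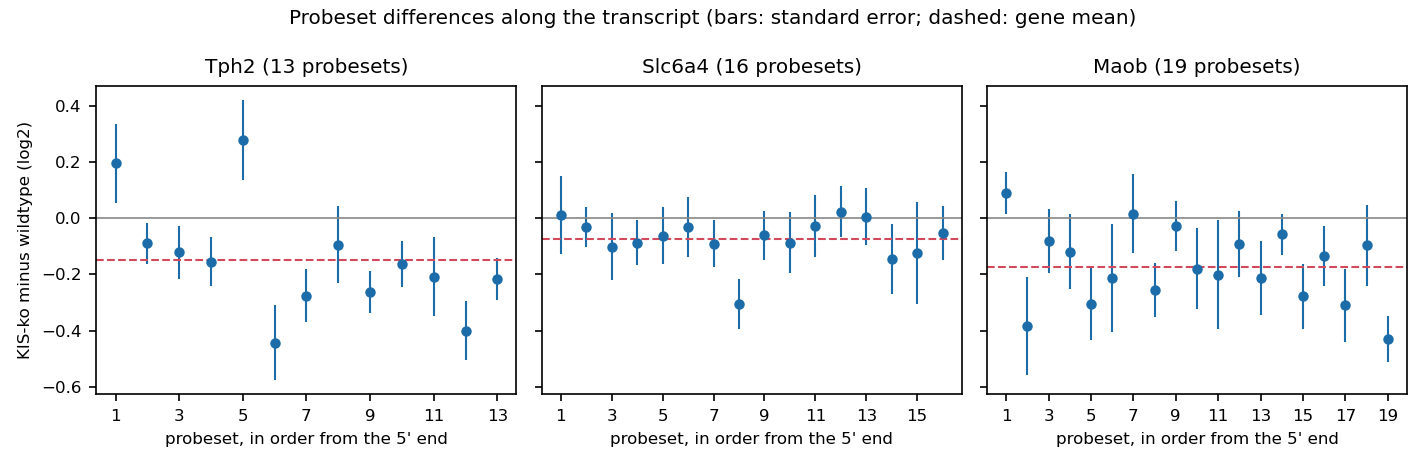
Difference between KIS-ko and wildtype (log2, points, with bars of 1 standard error over litters) for each probeset of Tph2, Slc6a4 and Maob, in order from the 5′ end, with the gene mean as a dashed line. Tph2 has 2 probesets above 0 among its first 5, and all 7 of its 3′ probesets lie below 0.

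The rest of the serotonin pathway was read from 40 further genes, of which 38 were measured. None passed the adjusted test, and the median difference was −0.058. Of the 38, 25 (65.8%) were lower in KIS-ko brains, against 69.8% of all genes. The list of identity factors, which holds Fev, had 5 of 10 genes lower (median −0.022), among them Gata3 (−0.077 ± 0.062 SE) but not Gata2 (0.10 ± 0.064), Lmx1b (0.038 ± 0.049) or Insm1 (0.084 ± 0.046). The list of synthesis enzymes, with Tph2, Ddc and the makers of the tetrahydrobiopterin cofactor, had 7 of 10 lower (median −0.081), and that of storage, transport and breakdown 8 of 9 (median −0.073), with Slc18a2 at −0.096 ± 0.071 (SE). The receptors had 9 of 14 lower (median −0.032), and the receptor partners 5 of 5 (median −0.082). For comparison, 8 of 12 hindbrain Hox genes were lower (median −0.040). At an unadjusted limma p under 0.05 there were 4 of them, against 6.16% of all genes, and 3 of the 4 were higher. These were Hoxa5 (0.22, 1 probeset), Hoxb8 (0.31, 2 probesets) and Hoxc4 (0.19, 3 probesets), against Hoxb4 (−0.20, 5 probesets). Each had a limma adjusted p of 0.68. Lower values were also seen for 6 of 7 endothelial markers (median −0.052), 5 of 6 neuronal markers (median −0.045), 4 of 7 markers of mast cells and platelets (median −0.026), 1 of 4 of the pineal gland (median 0.034) and 1 of 5 of erythroid cells (median 0.017).

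Of the 38 genes, 2 had an unadjusted p under 0.05, both lower, a share near that of all genes (6.16%, and 4.34% lower), and they are given as values only. Rgs4, which shortens signalling of Gi-coupled receptors such as that of Htr1a, was lower in all 6 litters, as were 1.60% of all genes. Its values had a lowest, median and highest value of 9.40, 9.46 and 9.67 in wildtype and of 8.92, 9.15 and 9.24 in KIS-ko brains, so its groups did not overlap, as for 0.208% of all genes. The difference was −0.38 ± 0.071 (SE, unadjusted p = 2.94e-04, adjusted p = 0.33, limma over all genes), and it passed when dim probesets were left out (−0.53, limma adjusted p = 0.039, against a range of 0.065 to 0.72 over the other alternatives). With the median over its probesets in place of the mean, the difference was −0.62. Slc22a2, an organic cation transporter, differed by −0.14 ± 0.054 (SE, limma adjusted p = 0.68). Rgs4 is expressed widely in the brain. Over the 12 arrays, within genotype, its r with Tph2 was −0.51, and 4.31% of genes had a lower r. The relation of Rgs4 to serotonin neurons was not tested.

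**Figure D5:**
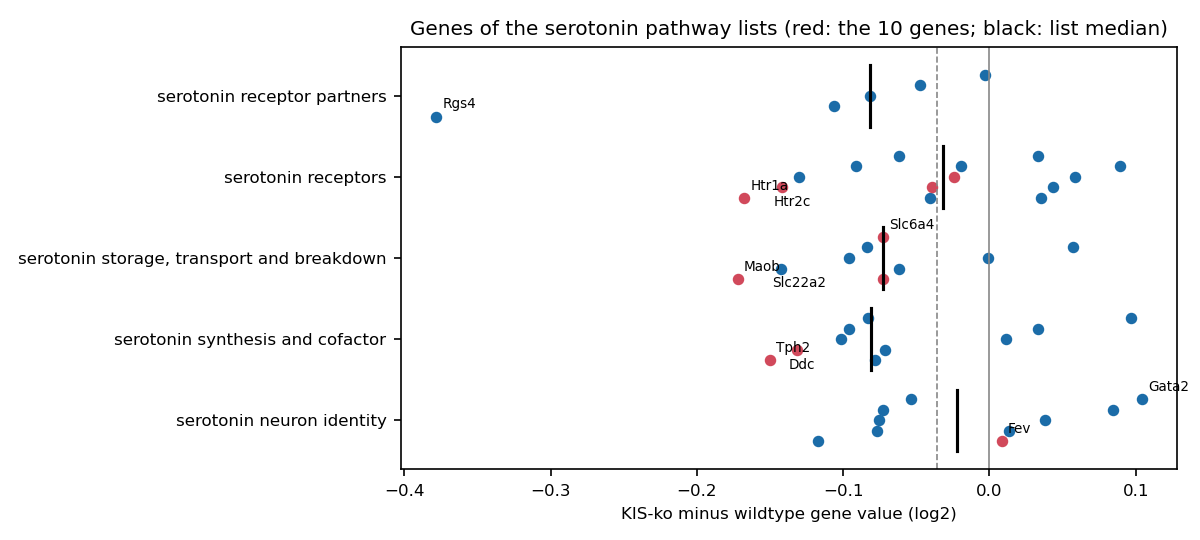
Difference between KIS-ko and wildtype (log2, horizontal axis) for each gene of 5 serotonin lists, with the 10 genes in red, other genes in blue, list medians as black bars and the median of all genes as a dashed line. Rgs4 stands at −0.38, and the identity list is spread on both sides of 0.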

How the data were processed

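Array data were processed by the authors in the Affymetrix Expression Console, with quantile normalization of exons and probeset signals from PLIER; versions and the genome build of the table are not given in the sources used here. The deposited intensity is the linear PLIER signal, before any logarithm. From these values, main probesets with a symbol and a relative standard deviation of at most 0.4 in each genotype, as in the study's methods, were kept (205469 of 221417). Gene values, the mean of log2(signal + 16) over probesets, were fitted with limma 3.58.1 (R 4.3.3) with litter as a block, over 17279 genes, with Benjamini-Hochberg adjustment at 0.05. Relations were computed with Python 3.11.15 and scipy 1.17.1. Scripts were tested on simulated data.

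The litter numbers in the labels pair the samples. Deviations of littermates from their group means correlated from −0.11 to 0.47 over litters. For a wildtype and a KIS-ko brain of different litters this correlation ran from −0.43 to 0.28, with a mean of −0.019. Precision is limited by the number of arrays, 1 per brain. The 12 arrays correlated with each other at 0.977 to 0.990. The members, the pathway and marker lists and the named genes (the 10 members, Uhmk1, pathway genes with an unadjusted p under 0.05 and the 5 genes most like Tph2) were chosen with earlier results of these data known. Other list genes were named as examples after their values were seen. Promoter sequences came from RefSeq (GRCm38.p6), with 9 of 10 members matched.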

Additional observations from a re-analysis of the deposited data

How the results depend on the processing

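Gene differences and their counts were recomputed with other pseudocounts, filters, scalings, probeset summaries and moderation, and without each litter. The relations over litters were recomputed in 4 other settings, and those over arrays and the probeset counts in 1 each, while the lists and the ranks of likeness to Tph2 were not recomputed. Uhmk1 passed in each of these settings. The count of genes past the adjusted threshold, 1, became 2 with a pseudocount of 64, without the relative SD filter and with trended, robust moderation, became 5 with that filter at 0.2 or without dim probesets, and ranged from 1 to 2 with 1 litter left out (2 without litter 3). At an unadjusted p under 0.05, the 1065 genes (6.16%) became 644 of the 11425 tested without dim probesets (5.64%), and the count ran from 550 (without litter 6) to 3913 (without litter 4). The lower ones among them, 750, were 444 without dim probesets, 309 with arrays centred on their medians, 413 after a further quantile normalization, and from 329 (without litter 6) to 3281 (without litter 4). Without the litter block 1 gene passed the adjusted test and 1017 the unadjusted one, and no adjusted call of the serotonin genes changed. Their unadjusted calls without the block are not given here.

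Tph2 was lower in each setting that gave a value, from −0.21 without litter 1 to −0.097 with centred arrays. So were Slc6a4 (−0.12 to −0.012), Htr1a (−0.22 to −0.11), Htr2c (−0.20 to −0.060), Maoa (−0.17 to −0.0055), Maob (−0.24 to −0.12) and Ddc (−0.16 to −0.028), some of them close to 0. The members' median ran from −0.14 to −0.046 and was −0.052 after a further quantile normalization, with 7 of 10 lower. Tph2 and Maob had no value, and Tph2 no relations, without dim probesets. Fev turned to −0.039 with the relative SD filter at 0.2, −0.15 without dim probesets, −0.029 with probesets that match 1 place only, and −0.021, −0.050 and −0.017 without litters 1, 3 and 4 (range −0.050 to 0.049 with 1 litter left out). Htr1b turned to 0.017 with centred arrays, 0.0087 with quantiles and 0.057 without litter 6 (range −0.12 to 0.057). Htr2a turned to 0.032, 0.022 and 0.0012 in the same settings (range −0.065 to 0.0012 with 1 litter left out) and 0.015 with the median over probesets. Rgs4 passed without dim probesets (−0.53). The member probesets with an unadjusted p under 0.05 went from 10 to 5 with centred arrays. Over litters, the r of Tph2 with Htr1a turned to 0.29 as deposited, 0.0053 with a pseudocount of 64 and 0.0066 without the SD filter, with Htr1b to 0.057 as deposited and 0.15 with probeset medians, and with Maob to 0.25 in both. Over the 12 arrays as deposited, 2 relations passed by Pearson r in place of 1, Ddc (r = 0.80) being added. By rho 2 passed on both, Slc6a4 and Fev on centred arrays and Slc6a4 and Ddc as deposited. The r turned to 0.27 for Htr1a and 0.42 for Htr2c. The cause of these changes was not tested. The dim signals of Tph2 and Maob limit what their values can show.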
